A study of Homo sapiens with 12 samples.

Results

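The 10 genes CDK1, CCNB1, CCNB2, PLK1, AURKA, AURKB, BUB1, BUB1B, TTK and CDC20 encode the kinases, the cyclins and the checkpoint proteins that take a cell into and through mitosis. They were chosen by gene symbol from 23710 symbols in the count tables, and all 10 passed the filter on low counts with each siRNA. MESH1, whose gene symbol is HDDC3, was silenced in RCC4, an established line of clear cell renal carcinoma, and the RNA was sequenced to ask how the transcriptome responds. Each well received 40 pmol of siRNA and was collected after 72 hours. In experiment 1, 3 libraries of siMESH1-CDS, which targets the coding part of the message, were compared with 3 of non-targeting siRNA (siNT), on sequencing lanes 4 to 7. In experiment 2, 3 libraries of siMESH1-7002, directed at the 3′ UTR, had their own 3 siNT libraries, all on lane 2. The control in both was AllStars Negative Control siRNA, so every library carries a transfected siRNA and none was left untransfected. A single cell line was used and no rescue of MESH1 was among these libraries. The siRNA, the experiment and the sequencing run change together between the comparisons and cannot be told apart.

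Entry into mitosis is driven by CDK1 bound to a B-type cyclin. PLK1 and AURKA help to activate that pair and to build the spindle poles, and AURKB, the kinase of the chromosomal passenger complex, corrects faulty attachments of chromosomes to the spindle. The spindle assembly checkpoint, which includes TTK (also called MPS1), BUB1 and BUB1B (BUBR1), holds CDC20, and CDC20 released from it activates the anaphase-promoting complex, the ubiquitin ligase that has cyclin B and securin destroyed. In dividing cells the messages of these genes rise late in the cycle, through the MuvB complex with B-MYB and FOXM1 acting on promoters that often hold a CHR element (cell cycle genes homology region) and CCAAT boxes. In bulk RNA, fewer cells in G2 or mitosis and less of a message in each such cell cannot be told apart.

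The targets of both siRNAs are shown because they set what each knockdown could reach directly. Capitals mark the part of the target that pairs with guide bases 2 to 8, the seed.

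siMESH1-CDS target: gggaaucacugACAUUGUg
siMESH1-7002 target: ctgaaggtctcctGCTAACTa

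The first target is in 9 of 10 annotated HDDC3 transcripts and the second in 6 of the 10. In the longest coding transcript the first starts at base 170, upstream of the 3′ UTR, and the second at base 715, in the 3′ UTR. None of the 10 mitotic genes holds a whole target. The DNA form of the seed site ACATTGT is in the 3′ UTR of 14.3% of 18572 genes and GCTAACT in 5.54%, and 0 of the 10 genes hold either site there. These 3′ UTRs are short for the most part, from 74 bases in CDC20 to 1378 in CCNB2.

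The promoter words shown next are, for the 6 genes that hold a CHR word, the one nearest to the start of transcription among those that read TTTGAA or TTCGAA along the gene, in RefSeq sequence of build GRCh38.p14 read along the gene. Capitals mark the CHR word, which was searched on both strands. CDK1 also holds the word on the other strand, from base 9 after its second start site. So does CDC20, from base -178 relative to its start site.

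CDK1, chr10:60778453-60778482, plus strand: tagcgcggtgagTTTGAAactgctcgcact
CCNB2, chr15:59105105-59105134, plus strand: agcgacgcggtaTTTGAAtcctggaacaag
PLK1, chr16:23678848-23678877, plus strand: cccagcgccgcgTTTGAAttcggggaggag
BUB1, chr2:110678045-110678074, minus strand: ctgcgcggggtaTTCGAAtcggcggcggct
BUB1B, chr15:40161034-40161063, plus strand: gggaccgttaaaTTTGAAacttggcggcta
CDC20, chr1:43358904-43358933, plus strand: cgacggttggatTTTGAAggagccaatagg

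In CDC20 the CHR word is followed within the same window by a CCAAT box, and in CDK1, CCNB2, PLK1 and BUB1B the word starts 13 to 29 bases before the start site. A promoter of 300 bases was at hand for 8 of the 10 genes, AURKA and TTK being named only. A CHR word was in 6 of the 8, against 16.4% of 35116 promoters of the same length, and a CCAAT box on either strand in 7 of the 8, against 34.6%. Both words were in 5 of the 8 and in 6.38% of all promoters. The promoter windows of CCNB1 and AURKB held a CCAAT box and no CHR word. These are matches of letters only, and no binding was measured here.

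The knockdown itself was deep with each siRNA. HDDC3 (chromosome 15) had 8.23, 6.46 and 7.75 CPM (the usual depth-scaled read count, here of reads in genes with TMM factors) in the siNT libraries of experiment 1 and 0.158, 0 and 0.316 with siMESH1-CDS. In experiment 2 it had 13.9, 13.1 and 12.7 CPM with siNT and 1.25, 1.18 and 1.72 with siMESH1-7002. Its log2 fold change as counted was -5.56 with siMESH1-CDS and -3.25 with siMESH1-7002. The HDDC3 transcript is rich in GC (56.8%). With the centred correction for GC content described further on, the changes were -3.85 and -3.19. Reads in genes numbered 34063155 to 49134129 per library in experiment 1 and 24787804 to 31651125 in experiment 2. The renal markers PAX8 and CA9 and the mesenchymal marker VIM were present in both experiments, with PAX8 at 168 CPM in siNT of experiment 1 and 443 in siNT of experiment 2. Of 8 markers of other cell types only COL1A1 was expressed, at 20.8 and 11.98 CPM in siNT, while the T cell marker CD3E and the endothelial marker PECAM1 were at 0 in all 4 groups. With siMESH1-CDS 5 of 7 renal markers were lower and 0 higher as counted, and 3 lower and 4 higher with the correction for GC content described further on. With siMESH1-7002 4 of 7 were lower. Over all genes 37.2% were lower and 36.9% higher with siMESH1-CDS as counted, and 32.6% and 33.8% with that correction. With siMESH1-7002 26.7% of all genes were lower. Libraries of siMESH1-CDS stood apart from the rest. They had 14482 to 14944 genes with a read, against 15743 to 15775 in their siNT, and 18.4% to 20.8% of reads in no annotated feature, against 14.7% to 15.5%. The part of these differences and of the markers in the results was not tested. Genes were divided into 10 bins of GC content, and log2 differences were taken against the mean of the siNT of the same experiment. The median of the highest bin minus that of the lowest was -4.04, -5.13 and -3.01 in siMESH1-CDS replicates 1, 2 and 3. It was -0.19, -0.23 and -0.22 with siMESH1-7002, and between -0.26 and 0.17 in the siNT libraries. As siNT libraries were set against their own mean, a GC trend that they share within an experiment cannot show here.

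The mitotic genes were lower with each siRNA against MESH1 than with its siNT. With siMESH1-7002 all 10 fell, to between 14.9% (BUB1B) and 38.3% (BUB1) of siNT, with a median log2 fold change of -1.97 against 0.0053 over all 13568 genes tested. With siMESH1-CDS 9 of 10 fell, with a median of -1.11 against -0.047 over 13395 genes, and the sizes were far apart, from 64.4% of siNT for BUB1B to 3.25% for CDC20. TTK had 72.4% of its siNT level and did not pass the test. Genes were called by edgeR's quasi-likelihood test with Benjamini-Hochberg adjustment over all genes tested, at 0.05. By that rule 37.2% of all genes were called lower and 36.9% higher with siMESH1-CDS, and 26.7% lower and 26.6% higher with siMESH1-7002. For all 10 genes each siMESH1 library lay below each siNT library of its experiment, for both siRNAs, a separation that 42.5% of all genes showed with siMESH1-CDS and 29.9% with siMESH1-7002. The exact permutation test of 3 against 3 libraries, two-sided over 20 splits, cannot go below 0.1, and it gave 0.1 for each of the 10 genes with either siRNA.

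Because changes with siMESH1-CDS followed GC content across all genes, they are also given after a correction of each library for transcript GC content, centred so that the median gene stays in place. This centring was chosen after seeing the data. With it 32.6% of all genes were called lower and 33.8% higher with siMESH1-CDS, and 30.2% lower and 30.3% higher with siMESH1-7002. All 10 mitotic genes were then called lower with each siRNA, with medians of -1.54 for siMESH1-CDS and -2.03 for siMESH1-7002.

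**Figure D1:**
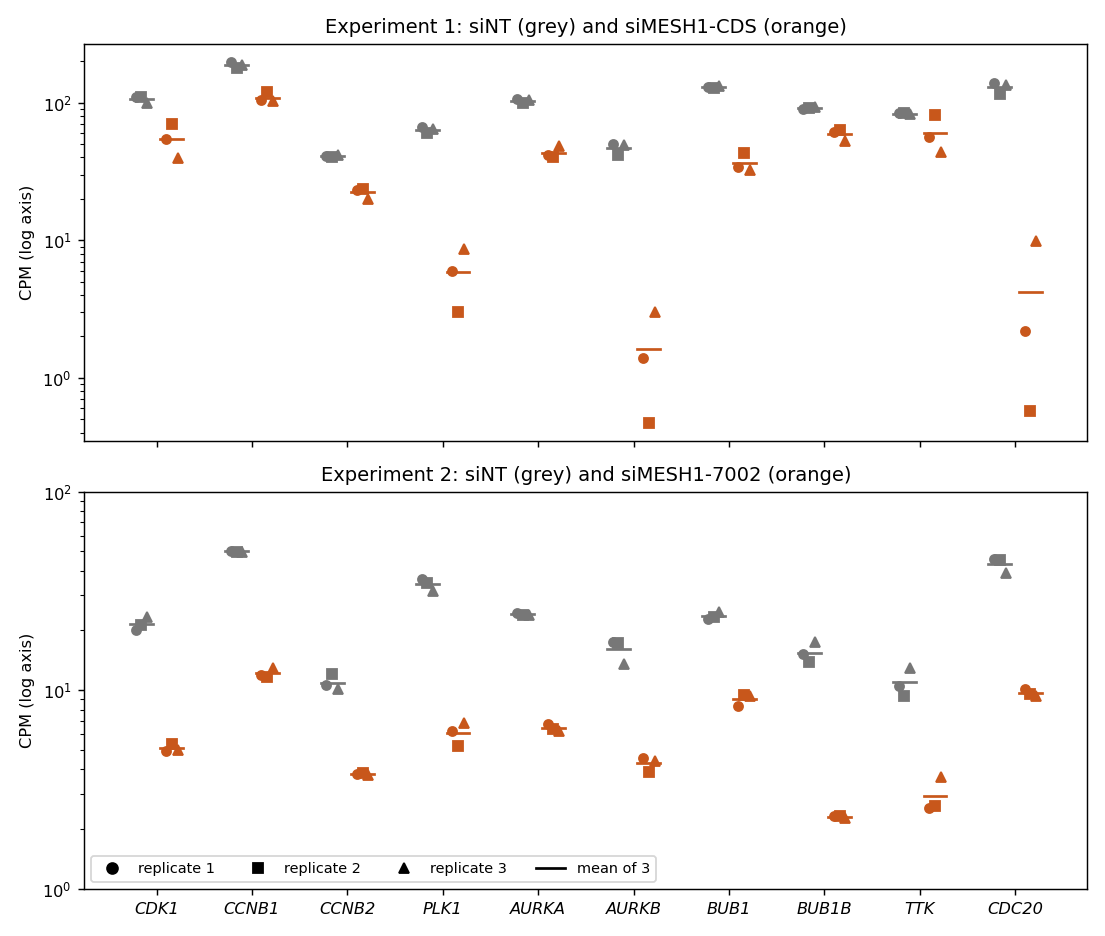
CPM of the 10 mitotic genes on a log axis, experiment 1 above and experiment 2 below, with siNT libraries in grey, siMESH1 libraries in orange, a symbol for each replicate and a bar at the mean of 3. Every orange point lies below the grey points of its gene and experiment. Among the siMESH1-CDS libraries, replicate 2 is the lowest for PLK1, AURKA, AURKB and CDC20 and the highest for all the other genes.

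CDK1 is the kinase that starts mitosis (chromosome 10, 60778331 to 60794852 in GRCh38). It had 110, 109 and 99.3 CPM with siNT of experiment 1 and 54.3, 70.2 and 39.3 with siMESH1-CDS. The siMESH1-CDS libraries were spread widely but none reached the siNT range. The mean fell from 106 ± 5.84 to 54.6 ± 15.4 CPM (SD, n = 3 each), with a log2 fold change of -0.96 (SE 0.21, edgeR adjusted p = 0.00812), and of -2.03 (SE 0.073) with the GC correction. In experiment 2 CDK1 had 20.1, 21.3 and 23.5 CPM with siNT and 4.92, 5.37 and 5.02 with siMESH1-7002. Here the silenced libraries were close together at 23.6% of siNT, a log2 fold change of -2.08 (SE 0.090, edgeR adjusted p = 7.69e-12).

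CCNB1 and CCNB2 encode cyclins B1 and B2, the partners that CDK1 needs for its activity (chromosome 5, 69167010 to 69178245, and chromosome 15, 59105078 to 59125045). CCNB1 had 197, 180 and 187 CPM with siNT of experiment 1 and 104.5, 120 and 102 with siMESH1-CDS. In experiment 2 it had 50.4, 49.7 and 49.9 CPM with siNT and 11.96, 11.7 and 12.9 with siMESH1-7002. The libraries of each group lay near each other, and CCNB1 was left at 57.8% of siNT with siMESH1-CDS (log2 fold change -0.79, SE 0.097, edgeR adjusted p = 0.000944) and 24.3% with siMESH1-7002 (-2.04, SE 0.065, adjusted p = 3.22e-13). CCNB2 had 40.8, 40.0 and 41.9 CPM with siNT of experiment 1 and 23.4, 23.6 and 19.9 with siMESH1-CDS. In experiment 2 CCNB2 had 10.6, 12.02 and 10.1 CPM with siNT and 3.78, 3.82 and 3.73 with siMESH1-7002. Both cyclins thus fell with each siRNA, CCNB2 by 0.88 on the log2 scale with siMESH1-CDS (SE 0.12, edgeR adjusted p = 0.00143) and by 1.53 with siMESH1-7002 (SE 0.10, adjusted p = 2.45e-09). With the GC correction the changes with siMESH1-CDS were -1.51 for CCNB1 and -1.47 for CCNB2. The named pseudogene copy CCNB2P1 has no row of its own in the tables.

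PLK1 (chromosome 16, 23677656 to 23690367) encodes the Polo-like kinase that acts from mitotic entry to cytokinesis. It had 66.6, 60.3 and 64.6 CPM with siNT of experiment 1 and 5.98, 2.99 and 8.57 with siMESH1-CDS. In experiment 2 it had 36.3, 34.7 and 31.6 CPM with siNT and 6.24, 5.24 and 6.87 with siMESH1-7002. As counted and scaled within each experiment, the silenced libraries were at much the same CPM, from siNT levels that were apart. These CPM hold the GC trend of siMESH1-CDS, and the median gene of PLK1's GC bin changed by -1.66 with that siRNA. Whether the levels are alike without that trend was not tested. PLK1 was left at 9.16% of siNT with siMESH1-CDS (log2 fold change -3.45, SE 0.39, edgeR adjusted p = 0.000753) and at 17.9% with siMESH1-7002 (-2.48, SE 0.093, adjusted p = 1.33e-12). Its transcript is rich in GC (57.3%), and with the correction the change with siMESH1-CDS was -1.49 (SE 0.096, edgeR adjusted p = 6.99e-05).

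The Aurora kinases fell with each siRNA, and AURKB far more than AURKA with siMESH1-CDS. AURKA (chromosome 20, 56369389 to 56392337), the kinase of the spindle poles, had 106, 99.4 and 105 CPM with siNT of experiment 1 and 41.5, 40.0 and 48.3 with siMESH1-CDS. In experiment 2 AURKA had 24.4, 23.95 and 23.94 CPM with siNT and 6.76, 6.35 and 6.21 with siMESH1-7002. AURKA was left at 41.8% (log2 fold change -1.26, SE 0.11, edgeR adjusted p = 0.00038) and 26.7% (-1.90, SE 0.077, adjusted p = 3.24e-12), with -1.57 for siMESH1-CDS under the GC correction. AURKB (chromosome 17, 8204733 to 8210600) had 49.7, 41.6 and 49.2 CPM with siNT of experiment 1 and 1.39, 0.468 and 3.02 with siMESH1-CDS. In experiment 2 AURKB had 17.4, 17.3 and 13.6 CPM with siNT and 4.58, 3.88 and 4.39 with siMESH1-7002. AURKB was left at 3.47% with siMESH1-CDS (log2 fold change -4.85, SE 0.67, edgeR adjusted p = 0.00141) and 26.6% with siMESH1-7002 (-1.91, SE 0.11, adjusted p = 4.06e-10). The change with siMESH1-CDS was -3.50 with the GC correction and -5.70 without siMESH1-CDS replicate 3. A related sequence, AURKAPS1, had at most 186 reads in any library.

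Among the checkpoint kinases, BUB1 and BUB1B changed places between the siRNAs. BUB1 (chromosome 2, 110637698 to 110678114), which marks the inner centromere for the passenger complex, had 131, 128 and 131 CPM with siNT of experiment 1 and 33.9, 43.2 and 32.4 with siMESH1-CDS. In experiment 2 BUB1 had 22.8, 23.3 and 24.7 CPM with siNT and 8.32, 9.42 and 9.37 with siMESH1-7002. BUB1 fell to 28.0% (log2 fold change -1.83, SE 0.13, edgeR adjusted p = 0.000292) and to 38.3% (-1.38, SE 0.078, adjusted p = 2.25e-10). BUB1B (chromosome 15, 40161023 to 40221136), a part of the complex that inhibits CDC20, had 90.3, 92.3 and 92.8 CPM with siNT of experiment 1 and 61.5, 63.2 and 52.7 with siMESH1-CDS. In experiment 2 BUB1B had 15.2, 13.8 and 17.4 CPM with siNT and 2.32, 2.33 and 2.28 with siMESH1-7002. It fell the least of the 9 called genes with siMESH1-CDS, to 64.4% (log2 fold change -0.63, SE 0.10, edgeR adjusted p = 0.00239), and the most of the 10 with siMESH1-7002, to 14.9% (-2.74, SE 0.12, adjusted p = 5.89e-12). With the GC correction the changes with siMESH1-CDS were -2.63 for BUB1 and -1.35 for BUB1B.

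TTK (chromosome 6, 80003887 to 80042527), the kinase at the head of the checkpoint, had 84.0, 84.0 and 82.1 CPM with siNT of experiment 1 and 56.2, 80.8 and 44.0 with siMESH1-CDS. Replicate 2 of siMESH1-CDS lay just under the lowest siNT library and the other two well under it. The log2 fold change of -0.47 (SE 0.22) did not pass the test (edgeR adjusted p = 0.101). It passed edgeR's test without siMESH1-CDS replicate 2 (-0.72, adjusted p = 0.00225), with a term for lane (-0.74, adjusted p = 0.00893) and with the GC correction (-1.41, SE 0.11, adjusted p = 0.00012). Lane 7 held only siMESH1-CDS replicate 2 and lane 5 only siNT replicate 2. The lane term thus sets siMESH1-CDS replicate 2 aside as well and is not a separate check. In experiment 2 TTK had 10.5, 9.40 and 12.9 CPM with siNT and 2.57, 2.60 and 3.66 with siMESH1-7002. There it fell to 26.9% (log2 fold change -1.89, SE 0.15, edgeR adjusted p = 1.26e-08).

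CDC20, the activator of the anaphase-promoting complex (chromosome 1, 43358955 to 43363203), had 139, 115 and 135 CPM with siNT of experiment 1 and 2.18, 0.572 and 9.87 with siMESH1-CDS. The 3 siMESH1-CDS libraries rested on 69, 22 and 343 reads and were, relative to their mean, the most scattered of the 10 genes. The log2 fold change was -4.94 (SE 1.01, edgeR adjusted p = 0.00578), -6.60 without siMESH1-CDS replicate 3 and -3.14 with the GC correction (SE 0.48). In experiment 2 CDC20 had 45.7, 45.0 and 38.9 CPM with siNT and 10.2, 9.56 and 9.37 with siMESH1-7002. That fall, to 22.5%, was close to the median of the 10 genes (log2 fold change -2.15, SE 0.079, edgeR adjusted p = 1.02e-12).

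**Figure D2:**
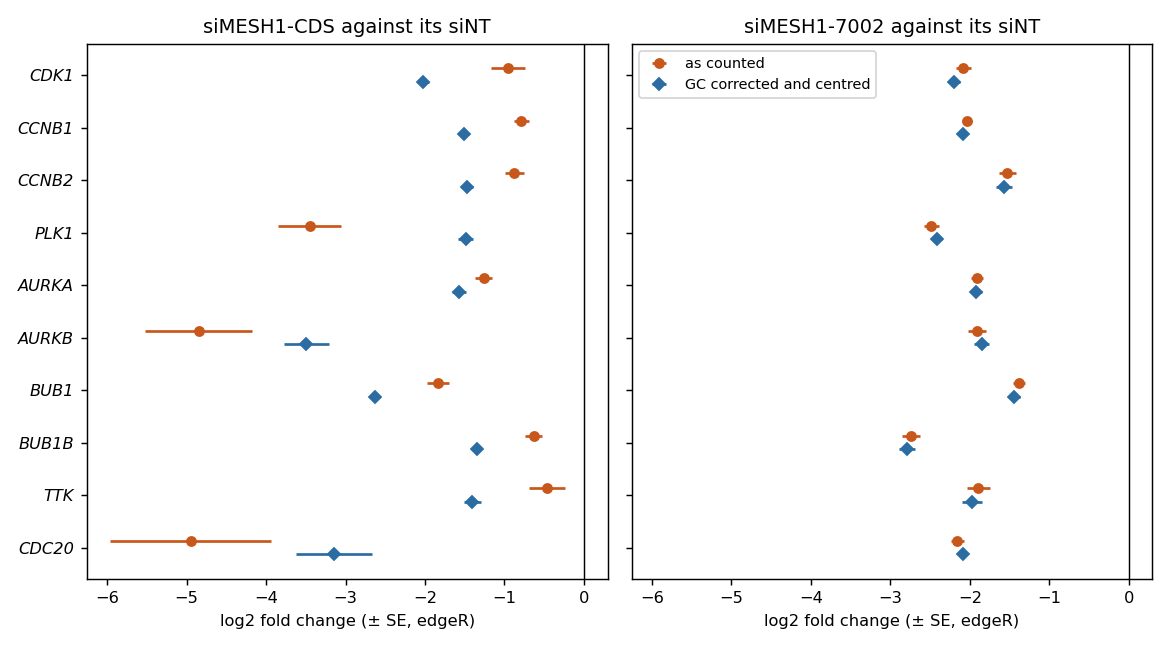
Log2 fold changes of the 10 genes with siMESH1-CDS (left) and siMESH1-7002 (right) against siNT of the same experiment, with SE from edgeR, as counted (orange circles) and after the centred GC correction (blue diamonds). All values lie below 0, the correction draws the siMESH1-CDS values from a range of 4.48 log2 units to one of 2.15, and it moves the siMESH1-7002 values little.

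With siMESH1-CDS, the 3 genes with GC-rich transcripts had the largest changes. CDC20 (57.9% GC), PLK1 (57.3%) and AURKB (55.6%) were at 10.9-fold to 30.8-fold lower means, while the other 7 genes, with 37.0% (CDK1) to 46.6% (AURKA) GC, were 1.38-fold to 3.57-fold lower. Across the 10 genes Pearson's r of change and GC content was -0.90 and Spearman's rho -0.70, as a description of 10 genes that share the same libraries. With siMESH1-7002 these were -0.26 and -0.35. The median of all genes also moved with GC content with siMESH1-CDS, from 1.12 in the lowest bin to -3.69 in the highest, against 0.14 to -0.088 with siMESH1-7002. Each of the 10 genes lay below the median of its own GC bin with siMESH1-CDS, by 1.25 log2 units for BUB1B at the least and by 3.19 for AURKB at the most. TTK, not called as counted, lay 1.48 units below its bin. AURKB and CDC20 stayed the furthest down after the correction, with BUB1 next. The part of GC content in the differences between these genes was not tested beyond this correction.

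**Figure D3:**
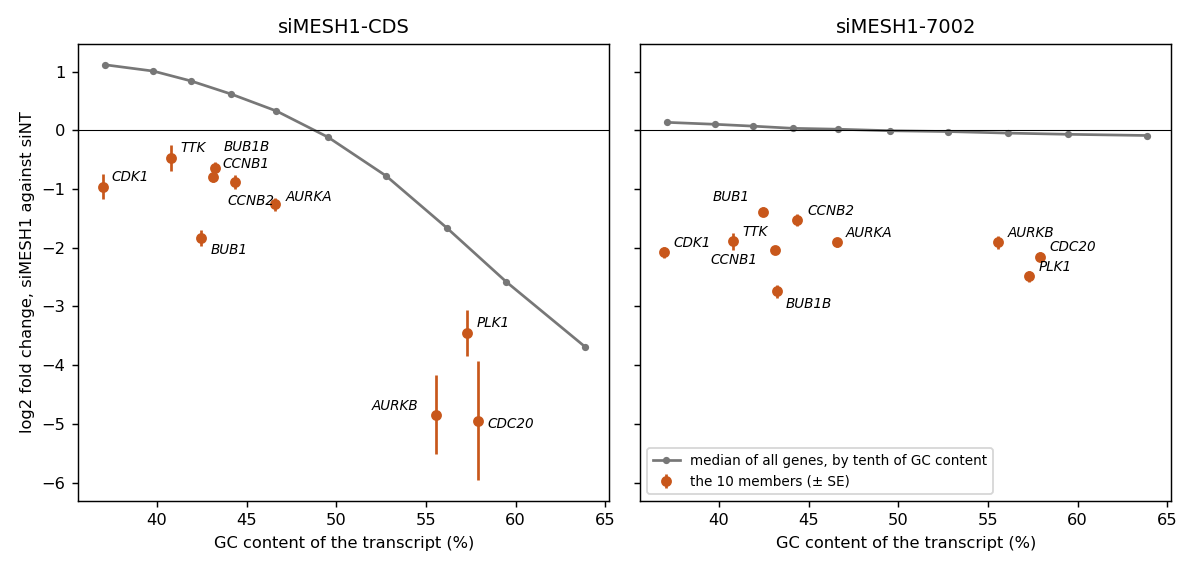
Log2 fold change against GC content of the transcript in percent for the 10 genes (orange, SE from edgeR) and the median of all genes in each of 10 bins of GC content (grey line), for siMESH1-CDS (left) and siMESH1-7002 (right). The line falls from 1.12 to -3.69 on the left and stays between 0.14 and -0.088 on the right, and all 10 genes lie below it in both panels.

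Lanes were shared by a siNT and a siMESH1-CDS library in lane 4 and in lane 6, which gives 1 difference per lane and gene with no replicate. All 10 genes were lower with siMESH1-CDS in both lanes, as counted and without the GC correction. The share of all genes lower in both lanes was not counted. Over all genes, 42.5% had every siMESH1-CDS library below every siNT library of experiment 1. The log2 differences ran from -0.78 for BUB1B to -4.04 for AURKB in lane 4, and from -0.55 for TTK to -5.95 for CDC20 in lane 6. TTK came to -0.93 in lane 4.

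The size of the change differed between the siRNAs for each of the 10 genes in a single edgeR model of the 12 libraries, against 69.7% of all genes. That model has its own scaling and shares 1 estimate of the spread between the experiments. Its common coefficient of variation was 0.196, against 0.299 for experiment 1 and 0.049 for experiment 2 fitted alone. Its p-values thus understate the spread of experiment 1, and its SE for AURKB is below the 0.67 of experiment 1 alone. The fall was smaller with siMESH1-CDS for 6 of the 10 genes, by 0.49 log2 units for AURKA at the least and 1.96 for BUB1B at the most (SE 0.15, edgeR adjusted p = 3.4e-06). It was larger with siMESH1-CDS for AURKB, CDC20, PLK1 and BUB1, with AURKB at -3.09 (SE 0.60, edgeR adjusted p = 0.00107). The difference of -1.12 for PLK1 (SE 0.40, edgeR adjusted p = 0.0293) was no longer called when any 1 of 7 libraries was left out. Over all genes the median difference was -0.24. With the centred GC correction 61.0% of all genes and 7 of the 10 were called. CDK1 (0.10, SE 0.087), CCNB2 (0.042, SE 0.11) and CDC20 (-0.94, SE 0.45) were not, and PLK1 turned to a smaller fall with siMESH1-CDS (1.00, SE 0.14, edgeR adjusted p = 0.000114). BUB1B (1.38, SE 0.10) and BUB1 (-1.24, SE 0.085) kept their opposite signs. Across the 10 genes the changes with one siRNA gave little order to those with the other, with Pearson's r of 0.099 as counted and -0.34 after the correction, as a description.

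Ratios of related genes within a library do not depend on its scaling, but they do depend on its GC trend where the genes differ in GC content. BUB1 to BUB1B had log2 ratios of CPM of 0.54, 0.48 and 0.50 with siNT of experiment 1 and of -0.86, -0.55 and -0.70 with siMESH1-CDS. In experiment 2 the same ratio was 0.59, 0.75 and 0.51 with siNT and 1.84, 2.02 and 2.04 with siMESH1-7002. The ratio thus moved in opposite directions, by -1.21 and by 1.35, with no shared values between siNT and silenced libraries in either experiment. AURKA to AURKB went from a mean of 1.15 ± 0.093 to 5.11 ± 1.22 with siMESH1-CDS (SD, n = 3 each) and stood at 0.59 ± 0.19 and 0.59 ± 0.11 in experiment 2. CDC20 to BUB1B differed by -5.17 with siMESH1-CDS and by 0.58 with siMESH1-7002. From the GC-corrected changes these differences with siMESH1-CDS were 1.92 for AURKA to AURKB, in place of 3.95, and -1.79 for CDC20 to BUB1B. BUB1 to BUB1B, a pair close in GC content, stood at -1.27 and 1.35 after the correction. CCNB1 to CCNB2 differed by 0.087 with siMESH1-CDS, with groups that overlap, and by -0.51 with siMESH1-7002, with groups that do not. CCNB1 to CDK1, cyclin B1 against its kinase, overlapped in both experiments, with differences of 0.20 and 0.041. No ratio could pass an exact permutation test of 3 against 3, and the smallest adjusted p over the 10 tests was 0.167.

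**Figure D4:**
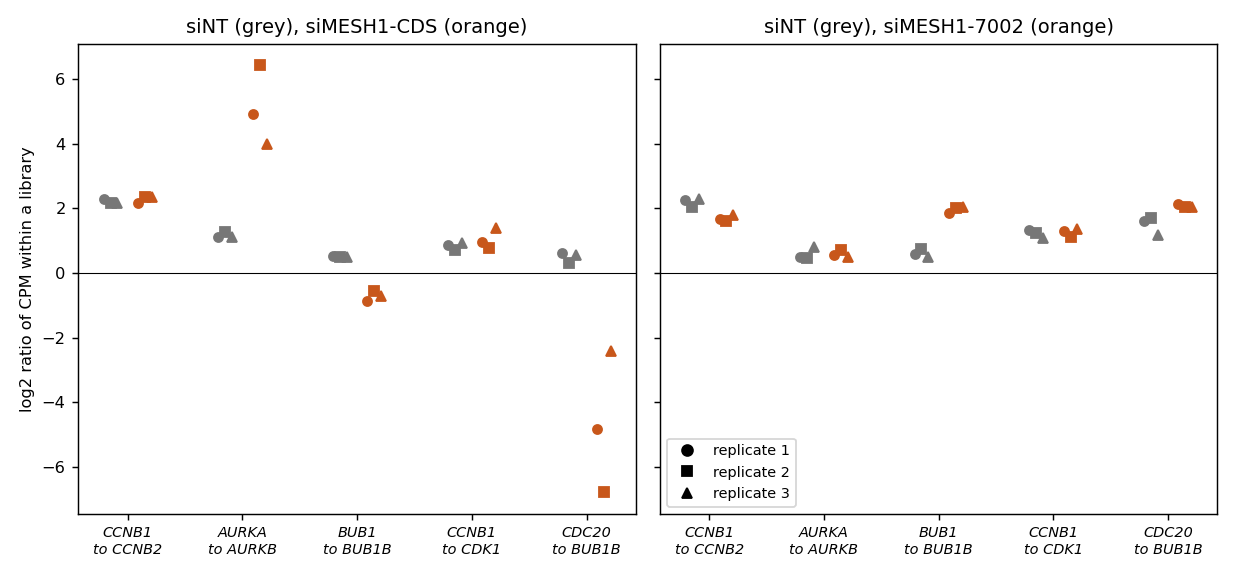
Log2 ratio of the CPM of related genes within each library, siNT in grey and siMESH1 in orange, experiment 1 on the left and experiment 2 on the right, with a symbol for each replicate. BUB1 to BUB1B drops below 0 with siMESH1-CDS and rises to about 2 with siMESH1-7002, while CCNB1 to CDK1 overlaps between the groups of both experiments.

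In siNT cells the levels of the 10 genes were ordered per length of transcript. In experiment 1 CCNB1 led at 86.7 ± 4.15 CPM per kb (SD, n = 3), followed by CDC20 at 72.9 ± 7.25, CDK1 at 54.4 ± 3.00 and AURKA at 46.1 ± 1.64. AURKB (37.3 ± 3.63) and BUB1 (36.4 ± 0.44) had overlapping ranges, and PLK1, BUB1B, TTK and CCNB2 followed, from 28.7 down to 16.3 CPM per kb. In experiment 2 CDC20 (24.3 ± 2.09) and CCNB1 (23.1 ± 0.18) led with overlapping ranges, and TTK was the lowest at 2.94 ± 0.49 CPM per kb. AURKB with CDK1, CDK1 with AURKA, and CCNB2 with BUB1B were the other neighbours that overlapped there. With siMESH1-CDS CDC20 went from the second place to the ninth, at 2.37 ± 2.80 CPM per kb, and AURKB from the fifth to the last. Both have GC-rich transcripts, and the order with the GC correction was not taken. With siMESH1-7002 CCNB1 and CDC20 remained the 2 highest, at 5.61 ± 0.30 and 5.46 ± 0.24 CPM per kb.

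The siNT libraries of the experiments were at different levels of the 10 genes, and the experiment and the sequencing run cannot be told apart in this. Scaled together, siNT of experiment 1 had 2.07 times (PLK1) to 8.45 times (TTK) the CPM of siNT of experiment 2, while the median of all genes was 1.05 times. The 3 genes with GC-rich transcripts had the smallest ratios, with 3.23 for AURKB and 3.33 for CDC20, and BUB1B at 6.59 and BUB1 at 6.13 came after TTK. The lowest siMESH1-CDS library was still above the highest siNT library of experiment 2 for 7 of the 10 genes. For CDK1 this was 38.4 against 23.0 CPM and for CCNB1 99.8 against 49.1. It was not above for PLK1, AURKB and CDC20, the genes with GC-rich transcripts. These levels are without the GC correction, and the share of all genes with such a separation was not counted. The summed CPM of the 10 genes, scaled within each experiment, was 949 to 1014 in siNT and 360 to 445 in siMESH1-CDS libraries of experiment 1. In experiment 2 the sum was 247 to 253 in siNT and 60.2 to 63.8 in siMESH1-7002 libraries.

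Of the regulators of mitotic entry, which hold activators and inhibitors of CDK1 and their transcription factors, 15 of 20 genes were called lower and 1 higher with siMESH1-CDS, and 17 lower and 0 higher with siMESH1-7002, with 13 lower with each. For these lists the shares over all genes were, as above, 37.2% lower and 36.9% higher with siMESH1-CDS and 26.7% and 26.6% with siMESH1-7002. The medians were -1.46 and -1.13 log2 units. The genes with the largest changes by the smaller of both were PKMYT1, GTSE1 and MYBL2. PKMYT1, a kinase that inhibits CDK1 and so acts against entry, had 408, 345 and 320 reads in the siNT libraries of experiment 1 against 2, 0 and 6 with siMESH1-CDS, and in experiment 2 it averaged 18.1 ± 2.05 CPM in siNT and 3.00 ± 0.38 in silenced libraries (-2.59 on the log2 scale). GTSE1, a microtubule-associated protein of G2 and mitosis, had log2 fold changes of -3.97 (SE 0.34) and -2.36 (SE 0.097), and MYBL2, which encodes B-MYB, -5.83 (SE 0.87) and -2.35 (SE 0.076). The GC-corrected changes with siMESH1-CDS were -2.84 for PKMYT1, -2.89 for GTSE1 and -3.26 for MYBL2. With that correction 17 of the 20 were lower with siMESH1-CDS and 0 higher, and the phosphatase gene CDC25B, which removes the inhibition of CDK1, went from -2.62 to 0.015.

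Of 15 other mitotic kinases, their activators and the opposing phosphatases, 9 were lower and 4 higher with siMESH1-CDS, and 10 lower and 3 higher with siMESH1-7002. The GC-corrected counts with siMESH1-CDS were 10 lower and 0 higher. HASPIN, the kinase that places the passenger complex on centromeres, had log2 fold changes of -2.79 (SE 0.33, corrected -1.75) and -2.44 (SE 0.14). CIT, the citron kinase of cytokinesis, had -2.27 and -2.29, and PBK, a mitotic kinase, -1.44 (corrected -2.38) and -2.58. The 3 genes called higher with each siRNA were NEK7 (1.03 and 0.73), CDC14A (0.97 and 0.47) and CDC14B (0.56 and 0.22), the last 2 encoding phosphatases that reverse phosphorylation by CDKs. With the GC correction none of these 3 was called with siMESH1-CDS (-0.071, 0.048 and 0.17).

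Of 13 partners in the spindle checkpoint, 8 were lower and 2 higher with siMESH1-CDS, and 10 lower and 0 higher with siMESH1-7002. MAD2L1, whose product forms the inhibitor of CDC20 together with BUBR1, averaged 63.5 ± 3.73 CPM in siNT and 8.40 ± 3.50 in siMESH1-CDS libraries (-2.92 on the log2 scale, SE 0.31), and 12.8 ± 0.92 and 2.94 ± 0.32 CPM in experiment 2 (-2.13, SE 0.11). TRIP13, the ATPase that remodels MAD2, had -1.41 and -1.75, and SGO1, which protects cohesion at centromeres, -1.34 (corrected -2.21) and -2.04. After correction for GC content 12 of the 13 were lower and 0 higher with siMESH1-CDS, at a median of -1.48.

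The subunits of the anaphase-promoting complex were called in both directions. Of 14 subunits, 3 were lower and 7 higher with siMESH1-CDS and 3 lower and 3 higher with siMESH1-7002, at medians of 0.23 and -0.034, beside 37.2% lower and 36.9% higher, and 26.7% and 26.6%, over all genes. With the GC correction 5 were lower and 3 higher with siMESH1-CDS, at a median of -0.22. ANAPC11, the RING subunit, had log2 fold changes of -3.23 (corrected -1.16) and -0.35 and ANAPC15 had -1.42 and -0.31, while ANAPC13 had 0.95 (corrected 0.45) and 0.28 and ANAPC4 had 0.73 and 0.21. ANAPC4 was not called with siMESH1-CDS after the correction (-0.19). The complex's partners and substrates, 7 genes, held 6 lower and 1 higher with siMESH1-CDS and 5 lower and 1 higher with siMESH1-7002. ESPL1, which encodes separase, had -4.52 (SE 0.67, corrected -2.78) and -2.52 (SE 0.090), UBE2C, the ubiquitin-conjugating enzyme of the complex, -2.98 (SE 0.63) and -2.35 (SE 0.092), and PTTG1, the securin, -1.08 (SE 0.21) and -1.56 (SE 0.090). The conjugating enzyme gene UBE2D1 was higher with each siRNA (1.54, corrected 0.40, and 0.28). Over all 5 lists 41 of 69 genes were lower and 15 higher with siMESH1-CDS, and 45 lower and 7 higher with siMESH1-7002. After correction for GC content 50 were lower and 4 higher with siMESH1-CDS.

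**Figure D5:**
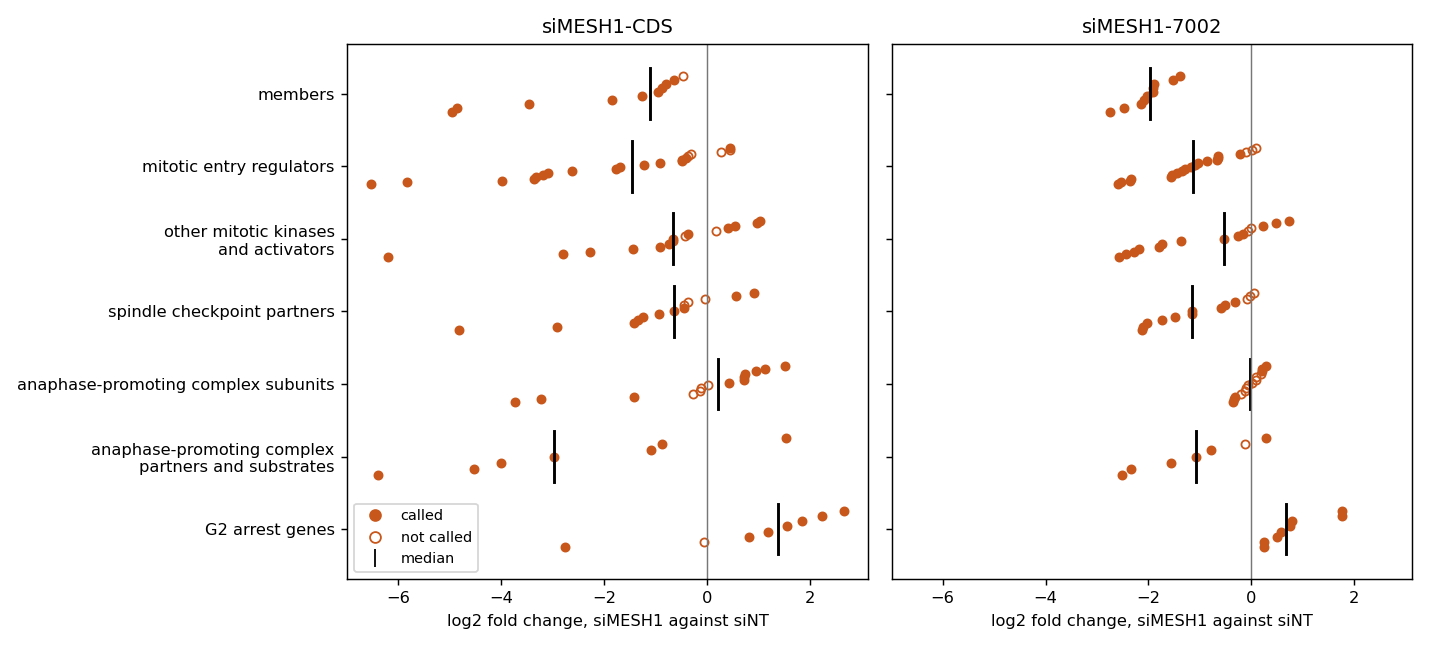
Log2 fold change of every tested gene of the 10 mitotic genes (members), the 5 lists of their pathway and the G2 arrest genes, for siMESH1-CDS (left) and siMESH1-7002 (right), with filled circles for genes called by edgeR and a black line at each list's median. The anaphase-promoting complex subunits have medians of 0.23 and -0.034, the G2 arrest genes 1.38 and 0.66, and the other lists lie below 0.

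Genes of the G2 arrest list were mostly higher. The name is that of the list, and no arrest in G2 was measured in these libraries. Of 10, SFN and RPRM were too low to test, and of the 8 tested 6 were higher and 1 lower with siMESH1-CDS and all 8 higher with siMESH1-7002. Over all genes 36.9% were higher and 37.2% lower with siMESH1-CDS, and 26.6% and 26.7% with siMESH1-7002. With the GC correction 5 of the 8 were higher and 0 lower with siMESH1-CDS. PLK3, the gene called lower, went from -2.75 to 0.11 and was not called after the correction. BTG2, an antiproliferative gene, averaged 16.5 ± 2.14 CPM in siNT and 105 ± 19.7 in siMESH1-CDS libraries (2.67 on the log2 scale, SE 0.19), and 43.8 ± 2.44 and 148 ± 3.72 CPM in experiment 2 (1.76, SE 0.054). GADD45A, a stress gene whose product can hold back CDK1, had 1.85 and 0.74, and PLK2, a stress-induced Polo-like kinase, 1.56 and 0.49. SESN1 (2.24 and 0.25), ZMAT3 (0.81 and 0.79) and CCNG1 (1.19 and 0.25) were also higher with each siRNA, but ZMAT3 and CCNG1 were not called with siMESH1-CDS after the GC correction (-0.18 and 0.15). CDKN1A, the p21 inhibitor of CDKs, was named after its values were seen. It had 350, 351 and 336 CPM with siNT of experiment 2 and 1192, 1188 and 1144 with siMESH1-7002 (log2 fold change 1.76, SE 0.041, edgeR adjusted p = 1.63e-14). With siMESH1-CDS it had 64.5, 36.4 and 144 CPM against 83.0 to 87.5 in siNT, and the groups overlapped (log2 fold change -0.06, SE 0.47, edgeR adjusted p = 0.918). With the GC correction it was called higher with siMESH1-CDS too, at 2.03 (edgeR adjusted p = 2.77e-05).

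The genes whose course over the 12 libraries was nearest to the mean of the 10 were PARP1, MKI67, HIRA, HUNK and KIF4A, out of 12814 others. Likeness was the root mean square distance of log2 CPM, with 0.25 CPM added, each taken from the mean of its siNT. The added 0.25 CPM shrinks the changes of genes at low CPM. The distance was 0.167 for PARP1 and 0.199 for MKI67, which encodes the proliferation marker Ki-67. It was 0.204 for HIRA, 0.205 for HUNK and 0.209 for KIF4A, a mitotic kinesin. The 10 genes themselves lay between 0.37 (BUB1) and 1.86 (CDC20) from their own mean. Likeness was taken without the GC correction, and whether the same genes would be nearest with it was not tested. MKI67 had log2 fold changes of -1.91 with siMESH1-CDS and -2.21 with siMESH1-7002, and KIF4A -1.66 and -2.004. PARP1 had -2.15 and -1.65, HIRA -2.19 and -1.60, and HUNK -3.14 and -2.07.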

How the data were processed

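RCC4 RNA was made into stranded mRNA libraries and read as single ends. The deposited values are read counts per gene symbol, which the authors made with FastQC, HISAT2 and HTSeq on build hg19 per the labels, with no versions given in the sources used here. Rows that name no gene (38.9% to 49.3% of reads) were left out. Deposited tables of the authors' DESeq2 comparisons (mean counts, fold changes, p-values) were not used, and 0 columns of values were left unmapped. Reads in genes numbered 24787804 to 49134129 per library.

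Each experiment was fitted on its own with edgeR 4.0.16 (filterByExpr, TMM, quasi-likelihood F test) in R 4.3.3, with Benjamini-Hochberg adjustment over all genes tested and a threshold of 0.05. The difference between the siRNAs was tested in 1 model of the 12 libraries. Samples are labelled as biological replicates, 3 per group, and it is not stated whether they came from separate cultures, so p-values cover only the spread between these libraries. Same-numbered libraries deviated from their group means with correlations of -0.072, 0.28 and 0.16 in experiment 1 and -0.082, 0.038 and -0.088 in experiment 2, so the numbers were not taken as pairs. Ratios were tested by exact permutation over 20 splits. The scripts were tested on simulated data first.

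GC content, transcript length and gene positions came from GENCODE 29 on GRCh38, matched by symbol for 21257 of 23710 genes, by an older symbol for 1147 and not for 1306. The GC correction subtracts a lowess curve (span 0.3) of each library's log2 counts on GC content. Its centring was chosen after seeing the data. Alternatives were DESeq2 1.42.0, other scalings and count filters, a model of 4 groups, lane or replicate terms, the GC corrections, stricter thresholds, and leaving out each library.

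The 10 genes and the gene lists were chosen with earlier results of these data known. Named genes were the 10, HDDC3, in each list up to 3 genes with the largest smaller change among those called the same way with each siRNA, list genes called higher with each siRNA, and the 5 genes nearest in course to the mean of the 10. CDC25B, CDKN1A and PLK3 were named after their values were seen.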

Additional observations from a re-analysis of the deposited data

Results flagged for a closer look

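The changes of all 10 genes differed between the siRNAs in the edgeR model of 12 libraries. They are given as the log2 fold change with siMESH1-CDS minus that with siMESH1-7002, both from that model. Its scaling over the 12 libraries and its shared spread differ from those of the separate fits. The values are therefore not the differences of the fold changes given for each experiment. The values were 0.97 for CDK1, 1.10 for CCNB1, 0.50 for CCNB2, 0.49 for AURKA, 1.96 for BUB1B and 1.27 for TTK, which fell less with siMESH1-CDS or, for TTK, were not called with it. They were -1.12 for PLK1, -3.09 for AURKB, -0.60 for BUB1 and -2.94 for CDC20, which fell more with siMESH1-CDS. Of all genes tested 69.7% differed in the same model. The siRNA, the experiment and the sequencing run cannot be told apart in these differences. With the centred GC correction CDK1 (edgeR adjusted p = 0.337), CCNB2 (adjusted p = 0.784) and CDC20 (adjusted p = 0.0932) were not called.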

How the results depend on the processing

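Every change of the 10 genes stayed below 0 with each siRNA under all alternatives run, and with siMESH1-7002 all 10 were called in each. With siMESH1-CDS 9 or 10 were called, the tenth being TTK. The median change of the 10 with siMESH1-CDS was -1.38 under library size scaling, -1.30 with at least 10 counts in every library, -1.27 in the model of 4 groups, -1.21 with a lane term, -1.96 with the GC correction and -1.54 with it centred. Library size scaling moved the median of all genes from -0.047 to -0.31, the model of 4 groups to -0.27 and the uncentred GC correction to -0.43. With siMESH1-7002 the median was -2.03 with the centred correction and -2.07 to -1.95 when 1 library was left out. Among all genes, 2166 were higher with siMESH1-CDS under the GC correction. With siMESH1-7002 1444 were lower and 1138 higher in the model of 4 groups, and 1449 and 964 when a minimum fold change was added to the threshold. The differences between the siRNAs changed sign under the uncentred GC correction for CDK1 (-0.53), CCNB1 (-0.097), CCNB2 (-0.58), PLK1 (0.38), AURKA (-0.31) and TTK (-0.14), and under the centred one for PLK1 (1.00). The cause was not tested. For PLK1 the call was lost (edgeR adjusted p of 0.0512 to 0.0656) without siNT-CDS replicate 1 or 3, siMESH1-CDS replicate 1, siNT-7002 replicate 2 or 3, or siMESH1-7002 replicate 1 or 3. In experiment 2, AURKA to AURKB differed by -0.066 and CCNB1 to CDK1 by -0.067 with a pseudocount of 1 CPM, and by -0.059 to 0.11 and -0.023 to 0.11 when 1 library was left out. With the centred GC correction, applied to the ratios after seeing the data, the differences with siMESH1-CDS were 1.92 for AURKA to AURKB, -1.79 for CDC20 to BUB1B, 0.51 for CCNB1 to CDK1 and -0.040 for CCNB1 to CCNB2, and with siMESH1-7002 -0.067 for AURKA to AURKB.

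With the replicate number as a block (replicate block) 9 and 10 of the 10 genes were called lower with siMESH1-CDS and siMESH1-7002, 4794 and 3511 genes in all were lower, 4479 and 3461 higher, and 10 differences were called. The block changed none of these calls of the 10 genes. Lane 5 and lane 7 held 1 library each and the lane term left 1 residual degree of freedom. DESeq2 called 9 of the 10 differences and gave no adjusted p for CDC20. The siMESH1-CDS libraries differed from each other by far more than counting error, with a chi-square per degree of freedom of 65.2 to 275 against 2.24 to 15.2 within the other groups.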
